A study of Mus musculus with 3 samples.

Results

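The genes of the oxidative phosphorylation complexes encode the subunits of the respiratory chain, complexes I to IV, and of ATP synthase, complex V. They were taken as all genes whose symbol in the deposited table began with Ndufa, Ndufb, Ndufc, Ndufs, Ndufv, Uqcr, Cox4 to Cox8 or Atp5, or was Sdha, Sdhb, Sdhc or Sdhd. The rule used names only and found 73 of 17850 gene symbols, read by 88 of the 25697 probes on the array. Complex I had 38 probes for 31 genes, complex II had 6 for 3, complex III had 6 for 6, complex IV had 18 for 16 and complex V had 18 for 15. A further 2 probes belonged to genes that encode no subunit, namely Ndufaf1, an assembly factor of complex I, and Atp5s, now called Dmac2l. No probe matched Sdha, and a list of the 13 subunits encoded in mitochondrial DNA had none of its genes on the array, so the values below concern nuclear transcripts.

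Oxidative phosphorylation uses the electrons of nutrients to make ATP in the inner mitochondrial membrane. Complex I (NADH dehydrogenase) and complex II (succinate dehydrogenase) pass electrons to ubiquinone, complex III (cytochrome bc1) hands them to cytochrome c, complex IV (cytochrome c oxidase) gives them to oxygen, and complex V (ATP synthase) makes ATP from the proton gradient that complexes I, III and IV build. Most subunits are encoded in the nucleus and imported. Complexes I, III and IV and the proton channel of complex V also hold subunits encoded in mitochondrial DNA. Mouse embryonic stem (ES) cells have mitochondria with active respiration and leave much of their glucose to glycolysis, and the balance between these routes is known to shift as such cells differentiate.

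The cells were mouse ES cells of a 129 background with a Sox17-GFP reporter, where Sox17 is a transcription factor of endoderm. The Activin group was GFP(+) cells given recombinant human Activin A at 50 ng/ml, and the Nodal group was GFP(+) cells given recombinant mouse Nodal at 1000 ng/ml. Both were labelled day 7 of a differentiation that the protocol places at 6 to 8 days, in medium with less serum than for maintenance and with no LIF listed. The undifferentiated group grew on gelatin together with mouse embryonic fibroblasts and received LIF, and the series' design text calls it GFP(+) although its title does not. All groups carried the reporter. The table held 2 arrays of each group, of biotin-labelled cRNA on 1-colour Illumina beads, while the sample descriptions speak of 2 replicates for Activin, 3 for Nodal and 4 for undifferentiated cells. Ligand, medium, feeders and days of culture all differed between the induced and the undifferentiated cells, and GFP status may have. These cannot be told apart. Nothing in the labels tells if paired arrays stem from different cultures, so p-values measure the spread between these arrays, which may be technical.

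On each array 49.3% to 50.6% of probes were detected, and the median raw signal was 55.2 to 60.9 intensity units. Sox17, read by 2 probes, had log2 levels of 11.39 to 11.90 on the Activin and Nodal arrays and 6.27 to 6.58 on the undifferentiated arrays. Summed over 10 pluripotency genes, the linear level was 1878 to 2204 in Activin cells, 3789 to 3866 in Nodal cells and 62308 to 62773 in undifferentiated cells. Markers of other cell types also differed. Of 14 macrophage markers, 2 were detected on both Activin arrays, 2 on both Nodal arrays and 10 on both undifferentiated arrays, with summed levels of 564 to 578, 562 to 566 and 12363 to 13533, though Csf1r, Ptprc, Fcer1g and Itgam were undetected in all 3 groups. Of 13 fibroblast feeder markers, 3, 4 and 9 were detected in Activin, Nodal and undifferentiated cells, summing to 4548 to 4920, 3356 to 3509 and 7177 to 7612, with Col1a2, Postn and Lum undetected in every group and Pdgfrb in undifferentiated cells. Whether these transcripts came from other cells, and the part of such cells in the differences below, was not tested.

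The transcripts of the complexes differed from their level in undifferentiated cells by mostly small amounts, with about as many moving up as down. After background correction and quantile normalization, a probe was tested when it was detected on at least 2 arrays, and 80 of the 88 probes, for 67 genes, met this. Against undifferentiated cells, 17 of the 80 probes were higher in Activin cells, 22 were lower and 41 did not pass an adjusted p of 0.05 (limma, Benjamini-Hochberg over all 14050 tested probes). In Nodal cells 19 were higher, 24 were lower and 37 did not pass. Both comparisons use the same 2 undifferentiated arrays, so they are not independent. In a bulk sample, fewer cells of a type and less RNA per cell cannot be told apart.

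These counts were small beside the array as a whole. Among all tested probes, 72.5% passed in Activin cells, 35.2% as higher and 37.3% as lower, and 73.2% passed in Nodal cells, 35.3% as higher and 37.9% as lower. The shares among oxidative phosphorylation probes were 48.8% and 53.8%. Restricting the count to probes detected on all 6 arrays left 38 of 78 members called in Activin cells, where 72% of such probes passed, and 42 of 78 in Nodal cells, where 72.6% passed. The median size of the log2 difference was 0.21 over the members and 0.54 over all tested probes in Activin cells, and 0.23 and 0.56 in Nodal cells, as the cumulative plot of change sizes shows. Signed medians were near 0 for both sets, at -0.02 for members and -0.03 for all probes in Activin cells and at -0.04 and -0.03 in Nodal cells. The standard errors (SE) of the members ran from 0.08 to 0.16 with a median of 0.09, and the median over all tested probes was 0.10.

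**Figure D1:**
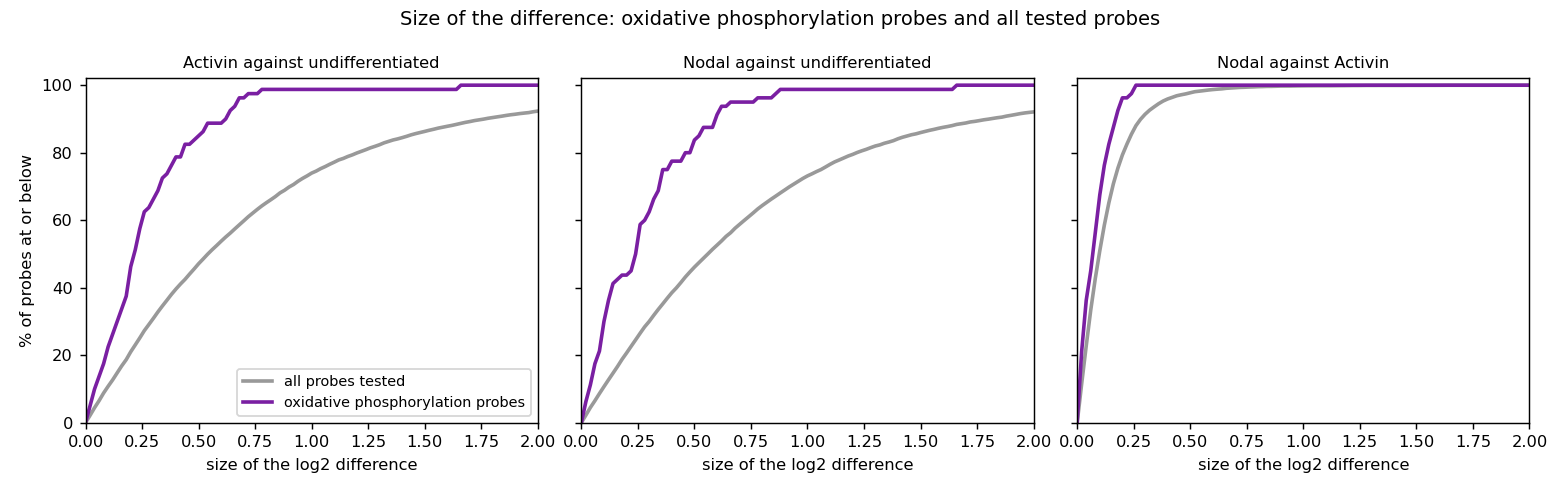
Cumulative share of probes (%, vertical) against the size of the log2 difference (horizontal) in each of the 3 comparisons, for the 80 oxidative phosphorylation probes and for all 14050 tested probes. The members' curve lies left of the curve for all probes in each panel, with medians of 0.21 against 0.54 in Activin cells and 0.23 against 0.56 in Nodal cells.

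Of the 80 member probes, 1, for Cox8c, passed with a fitted difference of 2-fold or more in each comparison with undifferentiated cells. Among all tested probes, 26% did so in Activin cells and 26.9% in Nodal cells. No member detected on all 6 arrays did. For Cox8c, which was detected in undifferentiated cells alone, the data give a bound under 2-fold, printed with its values. When limma tested against a minimum fold of 1.5 instead of any change, no member was higher in either comparison, 1 was lower in Activin cells (Cox8c, not above background there) and 3 were lower in Nodal cells, while 32.4% and 33.4% of all tested probes passed. On 1 probe per gene, 14 genes were higher and 18 lower of 67 in Activin cells, and 14 and 20 in Nodal cells. These counts moved with the settings. Scaling each array to 1 median in place of quantile normalization left 11 higher in Activin cells and 9 in Nodal cells, and it moved the median over all tested probes to 0.07 in both. Without 1 array, the higher count in Activin cells was 11 without Activin array 1, 11 without undifferentiated array 1 and 10 without undifferentiated array 2. In Nodal cells it was 10 without Nodal array 1, 10 without Nodal array 2 and 12 without undifferentiated array 1, and the lower count was 13 without Nodal array 1 and 15 without undifferentiated array 1.

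A smaller set passed in every one of the 14 other settings for any change in which it was tested. The setting with 1 probe per gene does not test the dimmer probes of Cox6b, Ndufa8 and Atp5j. In Activin cells these were 8 higher probes, for Cox6b (both probes), Ndufb7, Ndufa2, Ndufa3, Uqcrh, Atp5d and 1 of the Atp5j probes, and 11 lower probes, for Ndufb10, Uqcrc1, Ndufv1, Ndufa8 (both probes), Ndufs8, Ndufb2, Atp5g1, Atp5a1, Cox7b and Cox8c. In Nodal cells they were 8 higher probes, for Cox6b (both), Ndufb7, Ndufa2, Ndufa3, Uqcrh, Atp5s and 1 Atp5j probe, and 10 lower probes, for the genes just named except Atp5a1. No called member changed sign under any setting. The remaining calls, mostly with differences under 0.4 on the log2 scale, were each lost under at least 1 of these settings.

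**Figure D2:**
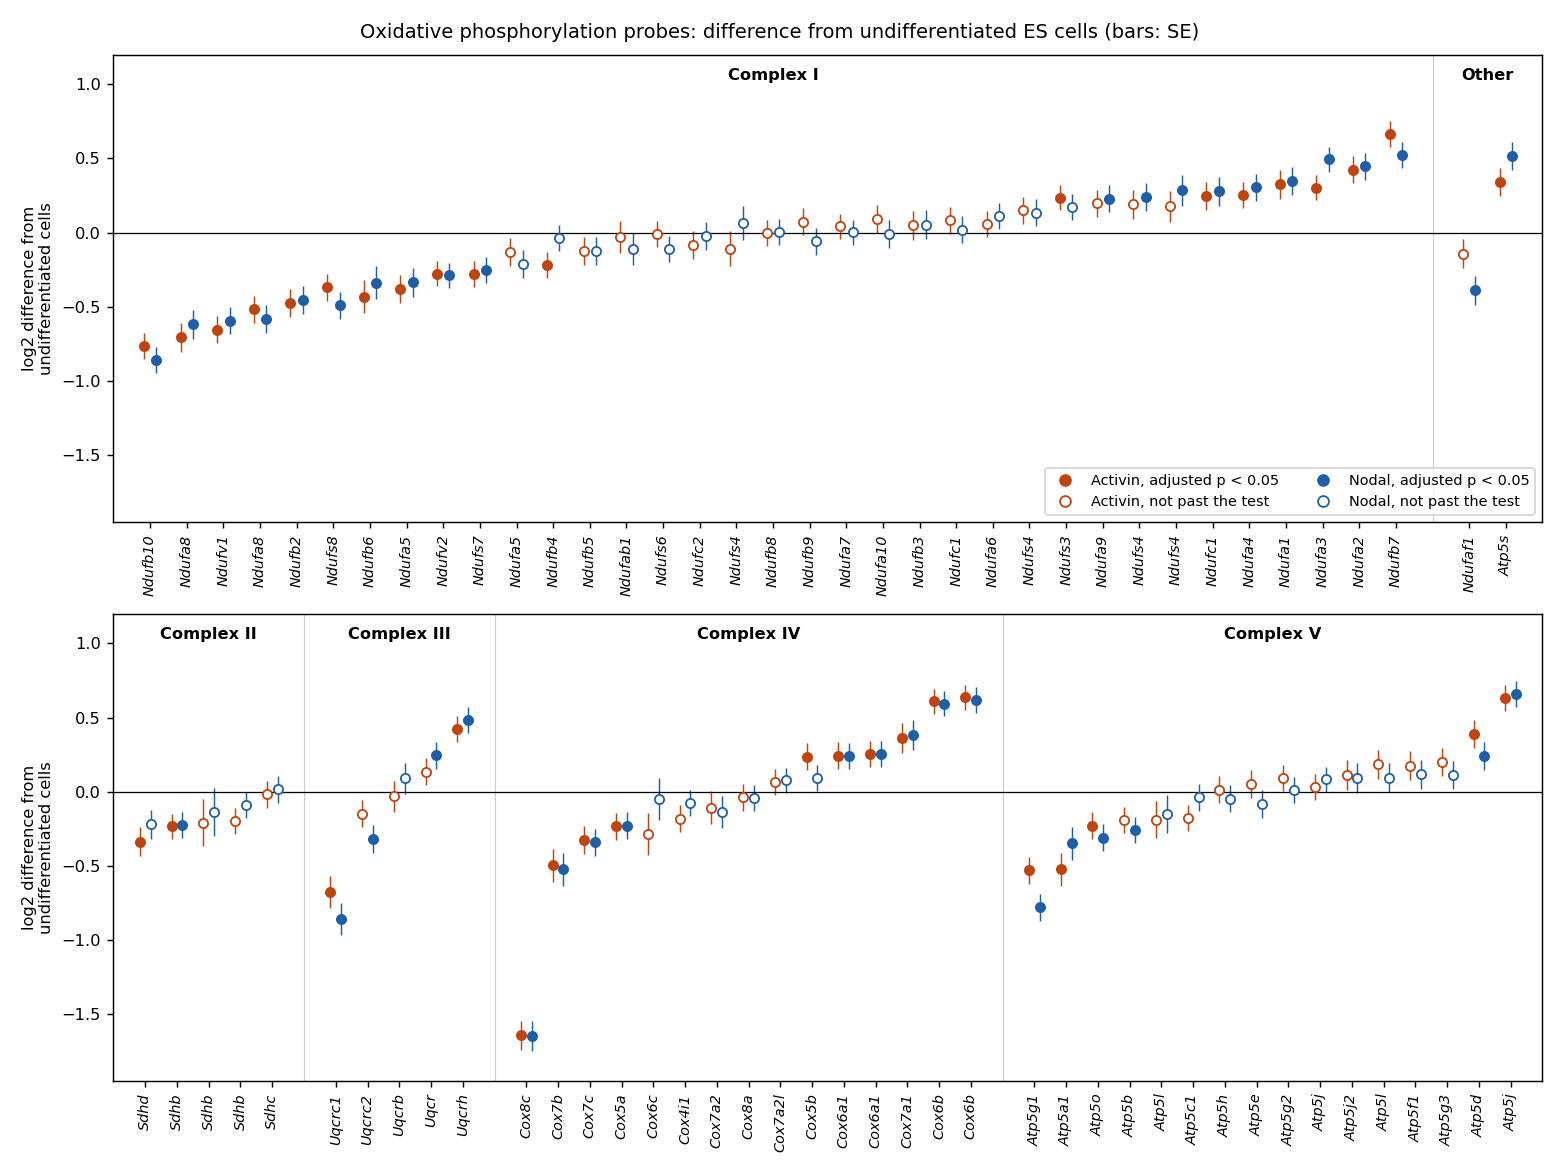
Log2 difference from undifferentiated cells (vertical, bars SE) for 78 tested probes, with Activin cells left of Nodal cells at each probe and probes ordered by their mean difference within a complex. Filled points passed an adjusted p of 0.05. All but Cox8c lie between -0.86 and 0.66.

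Complex I takes electrons from NADH through a catalytic core of flavoprotein and iron-sulfur subunits, around which accessory subunits are arranged. Of its 37 tested probes, 7 were higher and 12 lower in Activin cells, and 9 were higher and 12 lower in Nodal cells. The called shares were 51.4% and 56.8%, beside 72.5% and 73.2% of all tested probes. The core subunit Ndufs1 had no detected probe.

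Ndufv1, which holds the flavin and the NADH site, had log2 levels of 11.83 and 11.88 in Activin cells, 11.87 and 11.96 in Nodal cells and 12.55 and 12.47 in undifferentiated cells. Both undifferentiated arrays lay above all 4 others. Genes were named for large differences, so such gaps between arrays, here and below, are not separate evidence. For Ndufv1 the difference was -0.65 ± 0.09 (SE, adjusted p = 0.000116) in Activin cells and -0.59 ± 0.09 (adjusted p = 0.000219) in Nodal cells. Ndufs8, an iron-sulfur subunit of the arm that leads to ubiquinone, fell, with differences of -0.37 and -0.49. Ndufv2, the partner of Ndufv1, had differences of -0.28 and -0.29, and Ndufs7 of -0.28 and -0.25. Both calls were lost without some arrays, with adjusted p up to 0.0825 and 0.0706 for Ndufv2 and 0.0714 and 0.159 for Ndufs7 in Activin and Nodal cells. Ndufs3 went the other way in Activin cells, with a difference of 0.24 (adjusted p = 0.0333, up to 0.131 under other settings), and did not pass in Nodal cells at 0.17 (adjusted p = 0.0983).

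Among the accessory subunits, Ndufb10, part of the membrane arm, had the largest fall of the tested probes in both comparisons. Its log2 levels were 9.58 and 9.55 in Activin cells, 9.43 and 9.52 in Nodal cells and 10.29 and 10.38 in undifferentiated cells. All 4 induced arrays were below both undifferentiated ones, by 1.70-fold in Activin cells and 1.82-fold in Nodal cells (adjusted p = 3.97e-05 and 1.72e-05). Ndufa8, an accessory subunit with paired cysteine motifs, was lower on both of its probes. The brighter one read 11.03 and 11.16, 10.98 and 11.07, and 11.64 and 11.58 in Activin, Nodal and undifferentiated cells, and the differences over the 2 probes were -0.52 and -0.71 in Activin cells and -0.58 and -0.62 in Nodal cells. Ndufb2 fell, with differences of -0.47 and -0.46 (adjusted p = 0.00139 and 0.00175).

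Ndufb7, which belongs to the same membrane arm as Ndufb10, moved the opposite way. It had log2 levels of 8.81 and 8.89 in Activin cells, 8.69 and 8.72 in Nodal cells and 8.16 and 8.21 in undifferentiated cells. No induced array overlapped an undifferentiated one, and the differences were 0.66 ± 0.09 (SE, adjusted p = 9.04e-05) and 0.52 ± 0.09 (adjusted p = 0.000443). Ndufa2, a small accessory subunit, read 12.19 and 12.12, 12.13 and 12.21, and 11.78 and 11.68 in the 3 groups and rose by 0.42 and 0.45. Ndufa3, at 0.30 in Activin cells and 0.49 in Nodal cells, passed in both as well. Ndufa1 and Ndufa4 (Ndufa4 is now counted with complex IV) had differences of 0.25 to 0.35 that were lost with median scaling in both comparisons, with adjusted p from 0.0573 to 0.1.

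Of the other accessory subunits, Ndufb6 was lower, at -0.43 in Activin cells (adjusted p = 0.0059, 0.134 with median scaling) and -0.34 in Nodal cells (adjusted p = 0.02, 0.434 with median scaling). Ndufb4 passed in Activin cells at -0.22 (adjusted p = 0.0487, 0.652 with median scaling) and not in Nodal cells at -0.04 (adjusted p = 0.72). Ndufa9 passed in Nodal cells at 0.23 (adjusted p = 0.047, 0.252 with median scaling) and not in Activin cells at 0.20 (adjusted p = 0.0793). Ndufa6, Ndufa7, Ndufa10, Ndufab1, Ndufb3, Ndufb5, Ndufb8, Ndufb9, Ndufc2 and Ndufs6 passed in neither comparison, with differences between -0.13 and 0.11. For Ndufa7, for instance, log2 levels were 12.62 and 12.62 in Activin cells, 12.60 and 12.57 in Nodal cells and 12.57 and 12.59 in undifferentiated cells. Probes of 1 gene did not always give the same call. Of the 4 Ndufs4 probes, none passed in Activin cells and 2 passed as higher in Nodal cells, with differences there of 0.07 to 0.28. For Ndufa5 and Ndufc1, 1 of 2 probes passed in each comparison, and which transcripts the other probe reads cannot be told from the table.

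Complex II is the enzyme of the citric acid cycle that feeds electrons from succinate to ubiquinone. None of its 5 tested probes, for 3 genes, was higher, while 2 were lower in Activin cells and 1 in Nodal cells. Among all tested probes, 35.2% were higher and 37.3% lower in Activin cells, and 35.3% and 37.9% in Nodal cells. With so few probes, 3 of them for Sdhb, these counts cannot tell if complex II departs from those shares. The iron-sulfur subunit gene Sdhb passed on 1 of 3 probes, where log2 levels were 10.18 and 10.21 in Activin cells, 10.23 and 10.18 in Nodal cells and 10.39 and 10.47 in undifferentiated cells. The induced arrays lay below the undifferentiated ones by a narrow margin, with differences of -0.23 and -0.22 (adjusted p = 0.0351 and 0.0414), and the call was lost under 7 settings in each comparison, with adjusted p up to 0.173 and 0.213. Sdhd, a membrane anchor, had a difference of -0.34 in Activin cells (adjusted p = 0.0115, 0.157 with median scaling and 0.0766 without Activin array 2) and of -0.22 in Nodal cells (adjusted p = 0.0673). Sdhc, the other anchor, read 11.34 and 11.37, 11.32 and 11.46, and 11.34 and 11.40 in the 3 groups, which overlapped.

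Complex III moves electrons from ubiquinol to cytochrome c. Its core protein gene Uqcrc1 had log2 levels of 11.00 and 11.20 in Activin cells, 11.00 and 10.84 in Nodal cells and 11.71 and 11.84 in undifferentiated cells. All 4 induced arrays lay below both undifferentiated ones, while the Activin and Nodal arrays overlapped. It fell by 0.68 ± 0.11 (SE, adjusted p = 0.000333) in Activin cells and by 0.86 ± 0.11 (adjusted p = 6.52e-05) in Nodal cells. Uqcrc2, the second core protein, had a difference of -0.15 in Activin cells (adjusted p = 0.178) and of -0.32 in Nodal cells (adjusted p = 0.0118), a call lost without Nodal array 1 (0.0652) or undifferentiated array 1 (0.0717). Uqcrh, the acidic hinge protein that assists the contact with cytochrome c, was higher. Its levels were 13.17 and 13.09, 13.19 and 13.19, and 12.69 and 12.72, giving differences of 0.42 ± 0.09 (adjusted p = 0.00154) and 0.48 ± 0.09 (adjusted p = 0.000651). Uqcr, now Uqcr11, passed in Nodal cells at 0.25 (adjusted p = 0.0331, 0.361 with median scaling) and not in Activin cells at 0.13 (adjusted p = 0.208), Uqcrb passed in neither, and the Rieske gene Uqcrfs1 had no detected probe.

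Complex IV had 6 higher and 4 lower of 15 tested probes in Activin cells, and 5 higher and 4 lower in Nodal cells. The called shares were 66.7% and 60%, beside 72.5% and 73.2% of all tested probes. Cox6b, now Cox6b1, a subunit facing the intermembrane space, was higher on both probes. The brighter probe had log2 levels of 12.73 and 12.76 in Activin cells, 12.72 and 12.74 in Nodal cells and 12.15 and 12.13 in undifferentiated cells. The arrays of a group lay close together and the induced ones above the undifferentiated ones, with differences of 0.61 and 0.59, or 1.52-fold and 1.51-fold (adjusted p = 0.000126 and 0.000147). On the other probe they were 0.64 and 0.62. Both Cox6a1 probes were also higher, by 0.24 to 0.25, but each lost its call in both comparisons with median scaling, with adjusted p of 0.128 to 0.338. Cox5b passed in Activin cells at 0.24 (adjusted p = 0.0374, up to 0.185 under other settings) and not in Nodal cells at 0.09 (adjusted p = 0.37).

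Lower subunits of complex IV were Cox7b, Cox7c and Cox5a. Cox7b, a small membrane subunit, had levels of 8.68 and 8.52 in Activin cells, 8.57 and 8.58 in Nodal cells and 8.96 and 9.23 in undifferentiated cells, with every induced array below both undifferentiated ones and the Nodal arrays within the Activin range, and fell, with differences of -0.50 and -0.52 (adjusted p = 0.00263 and 0.00186). Cox7c fell, with differences of -0.33 and -0.34, calls lost without undifferentiated array 2 in both comparisons (adjusted p = 0.0822 and 0.0674) and without Nodal array 1 in the Nodal one (0.0552). Cox5a had differences of -0.23 in both, with adjusted p of 0.0433 and 0.046 that lay between 0.0616 and 0.212 for the arrays whose omission ended the call. Cox4i1, Cox6c, Cox7a2, Cox7a2l, a factor of supercomplexes, and Cox8a did not pass in either comparison. Cox6c had the widest spread of these, with 12.43 and 11.96 in Activin cells, 12.46 and 12.39 in Nodal cells and 12.40 and 12.55 in undifferentiated cells.

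Several complex IV subunits exist as pairs encoded by separate genes, one used in most tissues and one in particular tissues. The heart and muscle forms Cox6a2 and Cox8b and the lung form Cox4i2 were detected on no array, whereas Cox6a1, Cox8a and Cox4i1 were detected on all 6. Cox7a1, the heart and muscle form of subunit 7a, had log2 levels of 9.42 and 9.33 in Activin cells, 9.32 and 9.47 in Nodal cells and 8.94 and 9.09 in undifferentiated cells. It was higher by 0.36 ± 0.10 (SE, adjusted p = 0.00847) and 0.38 ± 0.10 (adjusted p = 0.00637), without overlap between induced and undifferentiated arrays. Without undifferentiated array 1 the Activin call was lost (adjusted p = 0.0619), and without Nodal array 2 the Nodal call was (0.0566). Its partner Cox7a2 did not pass, at -0.11 and -0.14. Beside this, 5 of 13 heart and skeletal muscle markers were detected on both arrays of Activin cells, 5 of Nodal cells and 3 of undifferentiated cells, with summed levels of 2988 to 3130, 3510 to 3678 and 493 to 507, and Myl2, Ckm, Nppa and Pln undetected in all 3. The part of muscle-type cells in the Cox7a1 difference was not tested.

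Cox8c, a form of subunit 8 known from testis, was detected only in undifferentiated cells, at 6.10 and 5.88 on the log2 scale. The induced arrays, where it was not above background, read 4.34 and 4.35 in Activin cells and 4.34 and 4.35 in Nodal cells. Taken against the lowest detected signal of those arrays, it was at least 1.94-fold lower in Activin and at least 1.97-fold lower in Nodal cells. These bounds were computed in the main setting. The adjusted p of 3.56e-07 and 3.42e-07 (limma) belong to the fitted differences of -1.64 and -1.65 and not to the bounds. Under other settings the fitted differences were as small as -0.84 and -0.85. The partner of Cox8c, Cox8a, read 13.05 and 13.13, 13.12 and 13.05, and 13.09 and 13.15. Of 8 testis and germ cell markers, 0 were detected on both Activin arrays, 0 on both Nodal arrays and 2 on both undifferentiated arrays. Ddx4, Sycp3, Pgk2, Cyct and Prm1 were undetected in all 3 groups.

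**Figure D3:**
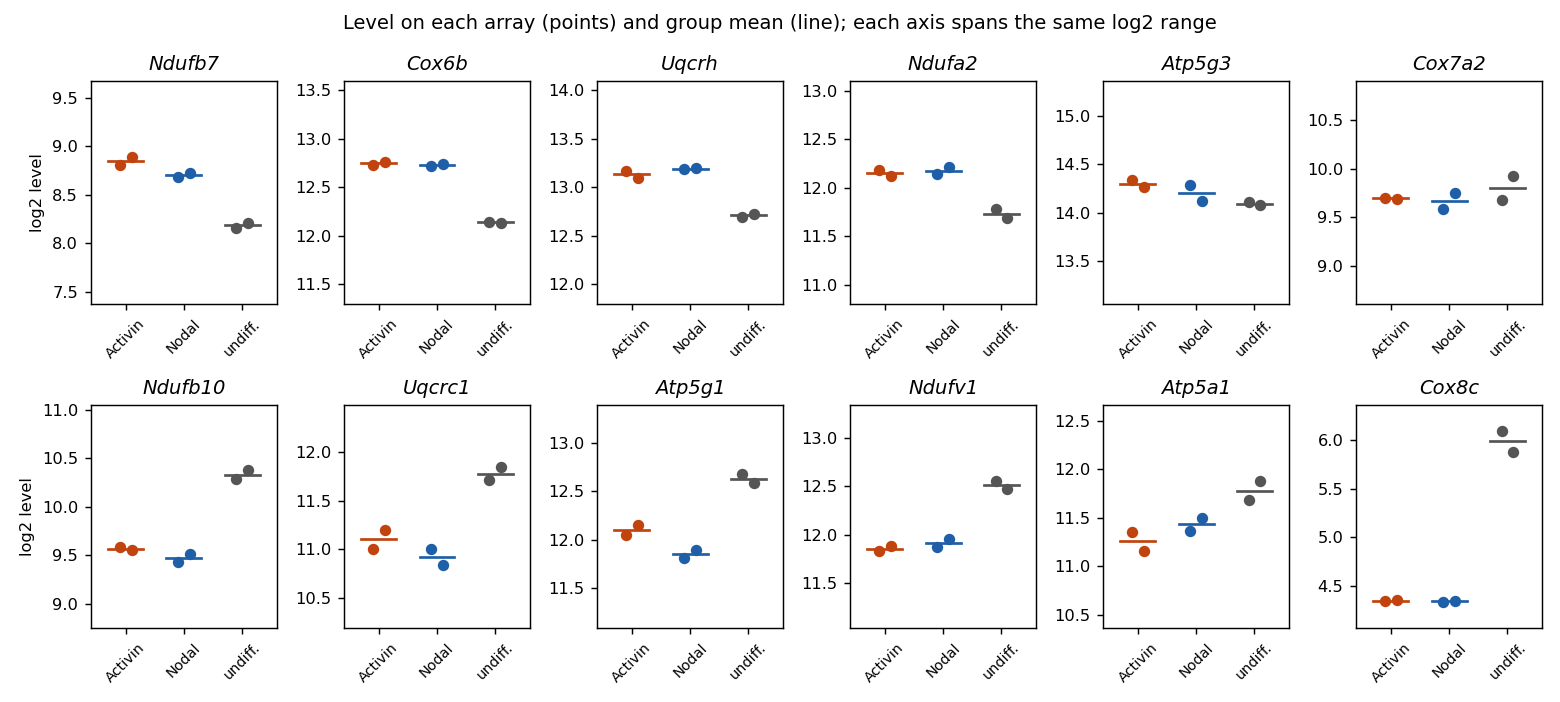
Log2 level (vertical) on each of the 6 arrays for the brightest probe of 12 genes, with Activin, Nodal and undifferentiated cells from left to right, points for arrays and lines for group means. Ndufb7, Cox6b, Uqcrh and Ndufa2 lie higher on the induced arrays, Atp5g3 and Cox7a2 did not pass, and the 6 genes from Ndufb10 to Cox8c lie lower; the Cox8c points of induced cells are not above background.

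Complex V consists of the F1 head that makes ATP and the membrane part Fo with its stalks. Of 16 tested probes, 2 were higher and 3 lower in Activin cells and 2 were higher and 4 lower in Nodal cells, while 11 and 10 did not pass. The called shares were 31.25% and 37.5%, beside 72.5% and 73.2% of all tested probes. The rotor ring of Fo is built from subunit c, a protein encoded by the 3 genes Atp5g1, Atp5g2 and Atp5g3, whose mature products are the same. Atp5g1 had log2 levels of 12.05 and 12.15 in Activin cells, 11.81 and 11.89 in Nodal cells and 12.68 and 12.59 in undifferentiated cells. The induced arrays lay below the undifferentiated ones, and the differences were -0.53 ± 0.09 (SE, adjusted p = 0.000573) and -0.78 ± 0.09 (adjusted p = 4.1e-05). Atp5g2, at 11.13 and 11.17, 11.03 and 11.11, and 11.01 and 11.11, and Atp5g3, at 14.34 and 14.26, 14.29 and 14.13, and 14.11 and 14.09, did not pass, with differences of 0.09 and 0.20 in Activin cells and 0.01 and 0.11 in Nodal cells.

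In the F1 head, the alpha subunit gene Atp5a1 read 11.36 and 11.15 in Activin cells, 11.36 and 11.50 in Nodal cells and 11.68 and 11.87 in undifferentiated cells. It fell by 0.52 (adjusted p = 0.00199) in Activin cells and by 0.35 (adjusted p = 0.0175) in Nodal cells, where the call was lost without Nodal array 1 (0.112) or undifferentiated array 2 (0.119). The beta subunit gene Atp5b, which carries the catalytic sites, had a difference of -0.19 in Activin cells (adjusted p = 0.075) and of -0.26 in Nodal cells (adjusted p = 0.0231, 0.115 without undifferentiated array 1). The delta subunit gene Atp5d was higher, by 0.39 (adjusted p = 0.00475) and 0.24 (adjusted p = 0.0452, up to 0.206 under other settings). Atp5c1 and Atp5e passed in neither. In the stalks, Atp5o, the oligomycin sensitivity protein, had differences of -0.23 and -0.31 (adjusted p = 0.0454 and 0.012), both lost with median scaling (0.548 and 0.292).

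Atp5j, coupling factor 6 of the stalk, gave 2 different readings. A dim probe had log2 levels of 8.62 and 8.59 in Activin cells, 8.60 and 8.67 in Nodal cells and 7.99 and 7.95 in undifferentiated cells, a difference of 0.63 and 0.66 (adjusted p = 0.000115 and 8.47e-05). The bright probe read 13.05 and 13.00, 13.11 and 13.04, and 12.99 and 13.00, with differences of 0.03 and 0.08 that did not pass. The remaining Atp5j probe was undetected on all arrays, and the table does not give the transcripts the probes read. Atp5f1, Atp5h, Atp5j2 and both Atp5l probes passed in neither comparison, and Atp5k was not detected. Outside the subunits, Atp5s was higher by 0.34 in Activin cells (adjusted p = 0.0102, 0.0662 without Activin array 1 and 0.0515 without undifferentiated array 1) and by 0.52 in Nodal cells (adjusted p = 0.0009). Ndufaf1 had a difference of -0.14 in Activin cells (adjusted p = 0.214) and of -0.39 in Nodal cells (adjusted p = 0.00526, 0.0512 without Nodal array 2).

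No difference between the 2 ligands passed the test for these genes. Between Nodal and Activin cells, 0 of 80 probes passed in limma, 3 had an unadjusted p under 0.05, and 0 passed under each of the other settings, while 2.04% of all tested probes passed. The differences, Nodal minus Activin, ran from -0.25 for Atp5g1 to 0.24 for Cox6c, with a median size of 0.06, against 0.10 over all tested probes. Their 95% intervals reached at most from -0.47 to 0.56, which leaves differences of that size possible for single probes. Atp5g1 had 11.81 and 11.89 on the Nodal arrays against 12.05 and 12.15 on the Activin arrays, a difference that did not pass. Ndufa3 had 11.33 and 11.38 in Nodal cells against 11.16 and 11.16 in Activin cells, with a difference of 0.19 that did not pass either.

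**Figure D4:**
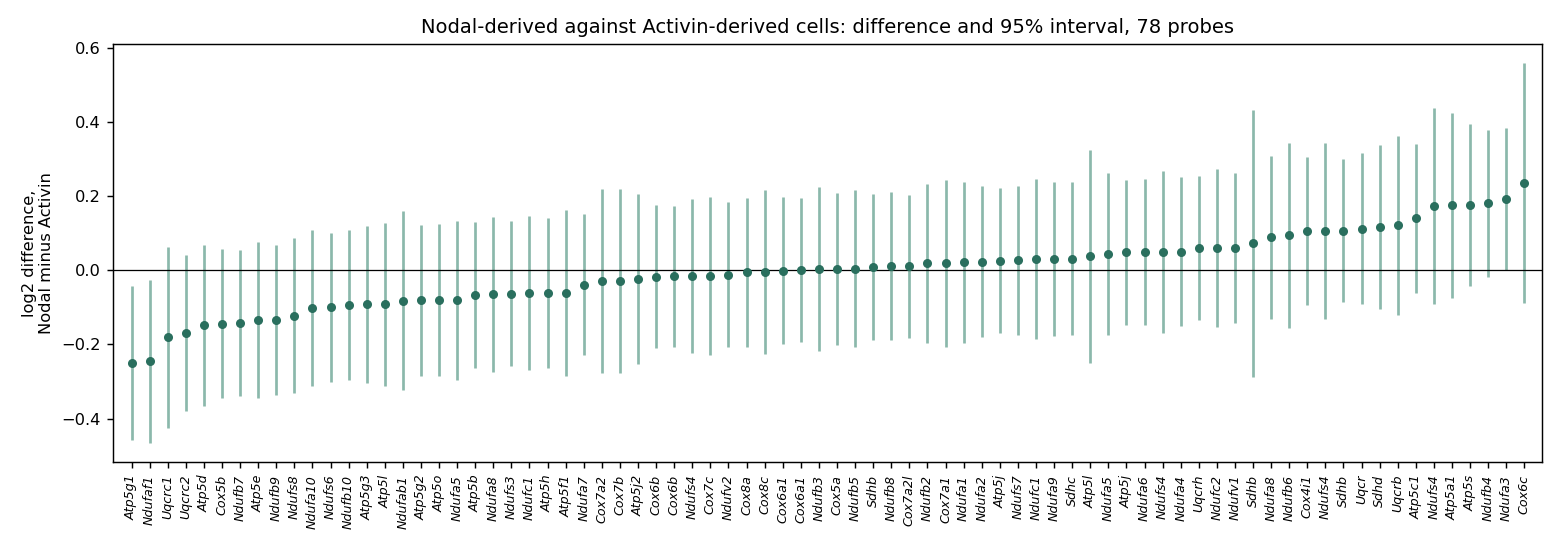
Log2 difference, Nodal minus Activin (vertical), with its 95% interval for 78 tested probes, ordered by size. The differences run from -0.25 to 0.24 and none passed an adjusted p of 0.05.

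Summed over all 88 probes, the raw signal of these genes made up 2.79% and 2.73% of the total in Activin cells, 2.74% and 2.74% in Nodal cells and 2.85% and 2.87% in undifferentiated cells. The undifferentiated shares were the highest, and all 6 lay within a narrow band. Probe by probe, the median deviation of the members from their own mean over the arrays was 0.01 and -0.02 in Activin cells, -0.02 and 0.00 in Nodal cells and -0.03 and 0.06 in undifferentiated cells. The 2 undifferentiated arrays were thus the lowest and the highest of the 6.

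Promoters of these genes often hold sites of the factors GABP, an ETS protein, NRF1 and YY1, which are known regulators of nuclear genes for mitochondria. RefSeq windows from 250 bases before to 50 after the start of a gene (GRCm38.p6) were found for 60 of the 73 member genes, with 65 windows in all. The ETS core CCGGAAG, searched on both strands, was in 26.2% of member windows and in 8.86% of all 32851 windows. The NRF1 core, GCGCA followed by any base and GCGC, was in 23.1% and 4.6%, and the YY1 site AAGATGGCG, which can overlap an ETS core, in 10.8% and 1.4%. Subunit genes, leaving out Atp5s and Ndufaf1, were then counted by gene if all their tested probes passed in 1 direction in both comparisons. Of those with a window, 4 of 9 higher genes (Cox6a1, Cox6b1, Ndufb7 and Uqcrh) had the ETS core. It was also found in 2 of 14 lower genes (Ndufb6 and Ndufs8). The NRF1 core was in 1 of the 9 and in 3 of the 14, and the YY1 site in 0 and in 1. These are counts of letters in a window and not of bound factors.

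The stretches of 120 bases before the start are shown for the 3 higher and 3 lower subunit genes with the largest mean difference over both comparisons on their brightest probe, among genes with a window, so that the letters behind these counts can be read. The higher genes were Cox6b1 (chr7:30626115-30626234, minus strand), Ndufb7 (chr8:83566638-83566757, plus strand) and Uqcrh (chr4:116075071-116075190, minus strand). The lower genes were Ndufb10 (chr17:24724424-24724543, minus strand), Uqcrc1 (chr9:108936528-108936647, plus strand) and Atp5g1 (chr11:96075632-96075751, minus strand). Sequences run 5′ to 3′ along the gene, and capitals mark the ETS core, which reads CTTCCGG when it lies on the other strand.
Cox6b1: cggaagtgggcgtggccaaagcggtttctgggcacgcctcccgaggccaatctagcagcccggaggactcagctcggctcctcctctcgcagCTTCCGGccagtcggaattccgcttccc
Ndufb7: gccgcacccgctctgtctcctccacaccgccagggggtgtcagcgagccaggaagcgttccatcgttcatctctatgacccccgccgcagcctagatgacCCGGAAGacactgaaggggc
Uqcrh: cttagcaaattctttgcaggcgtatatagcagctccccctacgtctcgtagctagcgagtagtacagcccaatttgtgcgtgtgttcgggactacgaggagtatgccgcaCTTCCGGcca
Ndufb10: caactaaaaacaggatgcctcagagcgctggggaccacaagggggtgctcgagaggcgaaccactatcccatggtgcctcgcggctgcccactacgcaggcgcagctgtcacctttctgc
Uqcrc1: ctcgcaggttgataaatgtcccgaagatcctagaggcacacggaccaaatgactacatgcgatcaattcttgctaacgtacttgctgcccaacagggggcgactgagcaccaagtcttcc
Atp5g1: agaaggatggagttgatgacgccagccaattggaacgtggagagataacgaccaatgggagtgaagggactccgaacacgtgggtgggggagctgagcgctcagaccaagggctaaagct
All 3 higher genes had an ETS core in the stretch shown, and the 3 lower genes had none of the motifs there. Ndufa3, next in order among the higher subunit genes, had none of the motifs in its window. The NRF1 matches of Uqcrc1 lay after its start and are not shown.

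Genes that surround the complexes were read from 6 lists, whose called shares are shown in the plot by list. Among all tested probes, 35.2% were higher and 37.3% lower in Activin cells, and 35.3% and 37.9% in Nodal cells. The counts below are to be read beside these shares. Whether a list departed from them was not tested. The median size of change ran from 0.24 to 0.57 over these lists in Activin cells and from 0.24 to 0.65 in Nodal cells, beside 0.21 and 0.23 for the subunit probes, and the difference between lists was not tested. On the brightest probe of each gene, 7 of 15 electron carrier and ubiquinone synthesis genes were lower and 5 higher in Activin cells, and the same counts held in Nodal cells. Dhodh, which passes electrons from pyrimidine synthesis to ubiquinone, had log2 levels of 9.20 and 9.25, 8.99 and 9.14, and 10.62 and 10.57 in Activin, Nodal and undifferentiated cells, and fell, with differences of -1.37 and -1.53 (adjusted p = 8.69e-07 and 3.87e-07). Pdss1, which builds the ubiquinone tail, fell by 1.36 in both, and Gpd2, the mitochondrial glycerol phosphate dehydrogenase, had -0.98 and -0.93. Coq2, which joins the tail to the ring of ubiquinone, rose by 0.85 and 1.00. The gene for cytochrome c in somatic tissues, Cycs, did not pass, at 0.03 and -0.01.

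Assembly factors, which put the complexes together, had 6 higher and 13 lower of 33 genes in Activin cells and 6 higher and 15 lower in Nodal cells. Ecsit, an assembly factor of complex I, read 8.34 and 8.41 in Activin cells, 8.31 and 8.36 in Nodal cells and 10.27 and 10.22 in undifferentiated cells. It was 3.65-fold lower in Activin cells and 3.76-fold lower in Nodal cells (adjusted p = 6.37e-08 and 5.38e-08). Bcs1l, which inserts the Rieske protein into complex III, fell, with differences of -0.86 and -1.05, and Foxred1, another complex I factor, had -0.84 and -0.97 with all 5 of its probes past the test. Several subunits and factors were on the array under older names that the rule did not take. Of these 16 tested probes, 2 were higher and 8 lower in Activin cells and 3 were higher and 9 lower in Nodal cells. Among them, Ndufaf5 fell, with differences of -1.24 and -1.30 on its first probe and Ndufaf7 had -0.97 and -1.02, both complex I factors. Higher in both comparisons were Atp5mpl, by 0.48 and 0.51, and the complex I subunit gene Ndufa12, by 0.25 and 0.23. The complex I subunit gene Ndufv3 was lower on 2 of 3 probes in Activin cells, at -0.55 and -0.53, and on all 3 in Nodal cells, at -0.68, -0.52 and -0.36. The complex III subunit gene Uqcr10 was lower on both probes, at -0.28 and -0.40 in Activin cells and -0.35 and -0.33 in Nodal cells.

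Genes of pyruvate oxidation and the citric acid cycle had 2 higher and 10 lower of 24 in Activin cells and 2 higher and 11 lower in Nodal cells. Pdk1, a kinase that switches off pyruvate dehydrogenase, had levels of 7.90 and 8.05, 7.80 and 8.14, and 10.70 and 10.59 in Activin, Nodal and undifferentiated cells, and fell, with differences of -2.67 and -2.68 (adjusted p = 6.46e-08 and 6.11e-08). Pdk4, a second such kinase, fell, with differences of -1.43 and -1.16. Pdhb, a subunit of the enzyme these kinases act on, fell, with differences of -1.13 and -1.33, and Idh3a, of the NAD-dependent isocitrate dehydrogenase, had -1.14 and -1.12. The list thus held both inhibitors and members of the same pathway among its lower genes.

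Regulators of mitochondrial gene expression had 1 higher and 11 lower of 17 in Activin cells and 1 higher and 9 lower in Nodal cells. Gabpa, the DNA-binding part of GABP, fell, with differences of -1.59 and -1.65 on its brightest probe (adjusted p = 1.26e-06 and 9.59e-07), while the weakest of its 3 probes had -0.51 and -0.11 and did not pass in Nodal cells (adjusted p = 0.459). Tfb1m, a methyltransferase of mitochondrial ribosomal RNA, fell, with differences of -1.38 and -1.41, and Polrmt, the mitochondrial RNA polymerase, had -0.84 and -0.82. Polg, the catalytic part of the mitochondrial DNA polymerase, was the 1 that rose, by 0.66 and 1.04.

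The list of carriers, uncoupling proteins and the ATP synthase inhibitor had 2 higher and 4 lower of 10 tested genes in Activin cells. In Nodal cells it had 1 higher and 4 lower. The inhibitor gene was not among those tested, and Ucp2 was the only uncoupling protein gene that was. Slc25a4, an exchanger of ADP and ATP that is abundant in heart and muscle, was not detected in undifferentiated cells. It was at least 1.57-fold higher in Activin cells and at least 1.97-fold higher in Nodal cells. The adjusted p of 0.000378 and 4.94e-05 (limma) belong to its fitted differences and not to these bounds. Ckmt1, a mitochondrial creatine kinase, fell, with differences of -0.89 and -0.84, and Vdac1, an outer membrane channel, had -0.64 and -0.62. Import and chaperone genes had 4 higher and 10 lower of 20 in Activin cells and 3 higher and 11 lower in Nodal cells. The chaperone Hspa9 was 1.96-fold and 2.06-fold lower, and Pmpcb, which cuts import signals, was 1.96-fold and 2.06-fold lower. Timm22, of the inner membrane translocase, was at least 1.22-fold higher in Activin cells, with no detected array in undifferentiated cells. Its fitted difference had an adjusted p of 0.000135 (limma). The 2 probes of Timm9, a carrier chaperone, went opposite ways in Activin cells, at -0.56 on the brighter and 0.40 on the other (adjusted p = 0.0276). In Nodal cells they were at -0.79 and at 0.27, of which the second did not pass (adjusted p = 0.105). Between Nodal and Activin cells 0 genes of these lists passed, and with other settings at most 1 gene of a list did.

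**Figure D5:**
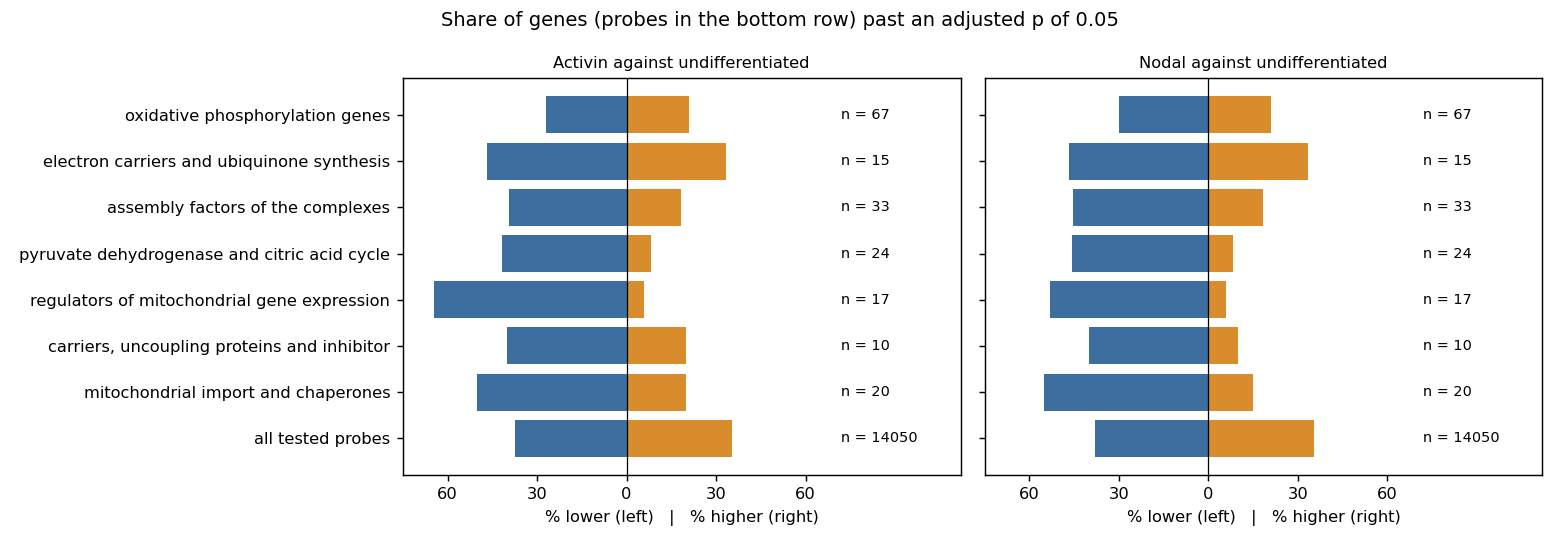
Share of genes past an adjusted p of 0.05 (%, horizontal), lower to the left and higher to the right, for the oxidative phosphorylation genes on 1 probe each, for 6 lists of related mitochondrial genes and, in the bottom row, for all 14050 tested probes, in Activin cells (left panel) and Nodal cells (right panel). The oxidative phosphorylation genes had 14 higher and 18 lower of 67 in Activin cells and 14 and 20 in Nodal cells, and each other list also had more lower than higher genes.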

How the data were processed

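The deposited table gave, per the file headers, a non-normalized bead intensity and a detection p-value for each of 25697 probes on 6 arrays. A second table held the authors' own intensity value for each group. Its scaling and the arrays behind it are not stated, and it served as an alternative. Groups came from the sample titles and arrays from the column names.

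Intensities were background-corrected (limma 3.58.1 in R 4.3.3, normal-exponential model from the detection p-values, offset 16), quantile-normalized and log2-transformed, so a level is on that log2 scale and probes are not compared with each other. Probes with a detection p-value under 0.05 on at least 2 arrays were kept, 14050 in all. A linear model with 3 groups was fitted to all probes with limma (lmFit, eBayes, two-sided), with Benjamini-Hochberg adjustment over all tested probes and a threshold of 0.05. The fit was tested on simulated data. With 2 arrays a group, their number limits the precision. A probe undetected in 1 group got a fold bound from the lowest detected value of each array. A p-value given with a bound tests the fitted difference and not the bound.

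Named were, per complex, the members with the largest differences past the threshold, the isoform sets, members past 2-fold and the leading genes of each list. For members named by their difference, a lack of overlap between the groups' arrays is tied to that choice. It is not separate support for them. Symbols were updated through a RefSeq table (GRCm38.p6), which changed 4 member symbols, and the file's symbols are used in the text unless stated. The members, the gene lists and their classes were chosen with earlier results of these data known. Alternatives covered background correction, normalization, the filter on dim probes, 1 probe per gene, a minimum fold, a replicate block and each array left out. The values of 1 member gene are not reported here, though it is part of the counts and medians.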

Additional observations from a re-analysis of the deposited data

How the results depend on the processing

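Of 16 alternatives, none reversed a called member. Against a count of 17 higher probes in Activin cells, median scaling gave 11 and a minimum fold of 1.5 gave 0, and leaving out 1 array gave 10 to 14. For the 22 lower probes, a minimum fold of 1.5 gave 1 and leaving out 1 array gave 15 to 20. In Nodal cells the 19 higher probes became 9 with median scaling, 12 with cyclic loess and 0 with a minimum fold of 1.5, and 10 to 19 without 1 array. The 24 lower probes became 3 with a minimum fold of 1.5 and 13 to 25 without 1 array. A minimum fold lowers such counts by construction. The cause of the changes without 1 array and under the other scalings was not tested. Counts stayed within 1.5 times under the other alternatives, and the count between Nodal and Activin cells was 0 throughout. The median difference over the members was -0.06 without undifferentiated array 1 and 0.02 without undifferentiated array 2 in Activin cells, so its sign is not settled. With the array number in the column names as a replicate block, Activin cells had 17 higher and 21 lower probes and Nodal cells 17 and 23. Arrays of the same number did not deviate together (correlations 0.00127, 0.0319 and 0.0970), so the numbers were not taken as pairs. The same alternatives were added for the lists of related genes after the data were seen, and under those that test for any change no named gene of these lists lost its call. Probes undetected on an array give only an upper bound there, which limits Cox8c, Slc25a4 and Timm22.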
